A study of Sus scrofa with 12 samples.

Results

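The insulin-like growth factor (IGF) axis of porcine arterial endothelial cells (ECs) is described here through 10 genes: the binding proteins IGFBP2 to IGFBP7, the receptors IGF1R and IGF2R, the ligand IGF2 and the protease PAPPA. Genes were taken by symbol from a table of 21153 genes. A row was found for 9 of the 10; IGF2 could not be tied to a row by its symbol and was not analysed here. IGFBP2 had 0 counts in all 12 libraries, and the other 8 genes had counts. The set was selected on its CPM in all libraries, read within each donor as 2 dyne/cm2 against set 1 and 80 dyne/cm2 against set 2 of the 30 dyne/cm2 libraries, so the members' values are given as a description. Both sets entered that choice, and so the difference between the sets is a description as well. Where a member is said to be called, this states only on which side of the thresholds its fitted value fell, and it supports nothing.

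IGF1 and IGF2 are secreted growth factors that act through the receptor tyrosine kinase IGF1R. Most circulating and tissue IGF is bound by IGF binding proteins, which hold the ligand away from the receptor, carry it through tissue or release it when proteases such as PAPPA cut them. Several IGFBPs also bind matrix and cell surface proteins. IGF2R, the cation-independent mannose 6-phosphate receptor, takes up IGF2 for degradation and sorts lysosomal enzymes.

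Primary ECs of 3 pigs were kept for 48 h under laminar flow at a low aneurysmal (2 dyne/cm2), physiological (30 dyne/cm2) or supra-high aneurysmal (80 dyne/cm2) wall shear stress. The cells carried no transgene and received no agent; the labels call them aortic, whereas the methods name coronary arteries. Each pig gave 1 library under low, 1 under supra-high and 2 under physiological shear stress, the last called set 1 (compared with 2 dyne/cm2) and set 2 (compared with 80 dyne/cm2), which makes 12 libraries in 4 groups of 3. According to the design notes, 2 and 80 dyne/cm2 were applied in slides of different type and at different seeding densities. Each had its own physiological control, and the labels do not tell which set was grown in which slide. The methods instead give the same slide type and seeding density for all flow experiments.

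Total counts lay between 29606854 and 41058902 per library (median 33871914) and levels are given in CPM (read counts scaled to a common library size with TMM factors). Of 10 endothelial markers, 8 had a row, all with counts in every group, and their summed level ran from 4472 to 5451 CPM under low flow, from 6362 to 7423 CPM in set 1, from 5973 to 7064 CPM in set 2 and from 7911 to 8067 CPM under supra-high flow. The 7 smooth muscle markers summed to 6.17 to 7.79 CPM under low flow, above every other library (2.86 to 4.23 CPM in set 1, 3.44 to 5.88 CPM in set 2 and 4.89 to 5.73 CPM under supra-high flow). Of these DES was at 0 and ACTA2 at most at 0.437 CPM, while MYOCD reached 5.32 and LMOD1 5.16 CPM. The leukocyte markers summed to at most 28.1 CPM, with PTPRC at no more than 2 counts. Mesenchymal markers had a row for 8 of 9, with none of these at 0 in any group. Their sum ran from 365 to 1309 CPM under low flow and from 162 to 306 CPM in set 1. In set 2 it ran from 127 to 724 CPM and under supra-high flow from 46.7 to 177 CPM. COL3A1 was the largest part of the sum, with means of 780, 182, 243 and 51.9 CPM in these groups. COL1A2 had means of 101, 46.6, 111 and 47.7 CPM, and LUM of 6.12, 7.32, 5.12 and 3.71 CPM. In bulk RNA, more cells of a type and more RNA per cell cannot be told apart.

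A gene was called up- or down-regulated when the fold was at least 2 and the adjusted p was below 0.05, from edgeR's quasi-likelihood fit with a term for donor and Benjamini-Hochberg adjustment over all genes tested. At 2 vs. 30 dyne/cm2, 3 of the 8 members that passed the filter were called higher (IGFBP3, IGFBP5 and IGF1R), where 5.06% of all 11226 genes tested were, and 1 (IGFBP6) was called lower, where 4.54% were. At 80 vs. 30 dyne/cm2, 1 of 7 tested members (IGFBP6) was called higher beside 1.14% of 11187 genes, and 1 (IGFBP3) was called lower beside 1.05%. The CPM of both groups did not overlap for 6 of 8 members at 2 dyne/cm2, beside 37.8% of all genes, and for 3 of 7 at 80 dyne/cm2, beside 14.9%. Members had a median log2 fold change of 0.63 under low and of -0.22 under supra-high shear stress, beside 0.00 and -0.01 for all genes. These counts follow from how the genes were chosen. IGFBP5 passed the filter only in the comparison at 2 dyne/cm2 and only through the libraries in which it was high, so it had to differ there; without it, 2 of 7 members were called higher.

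**Figure D1:**
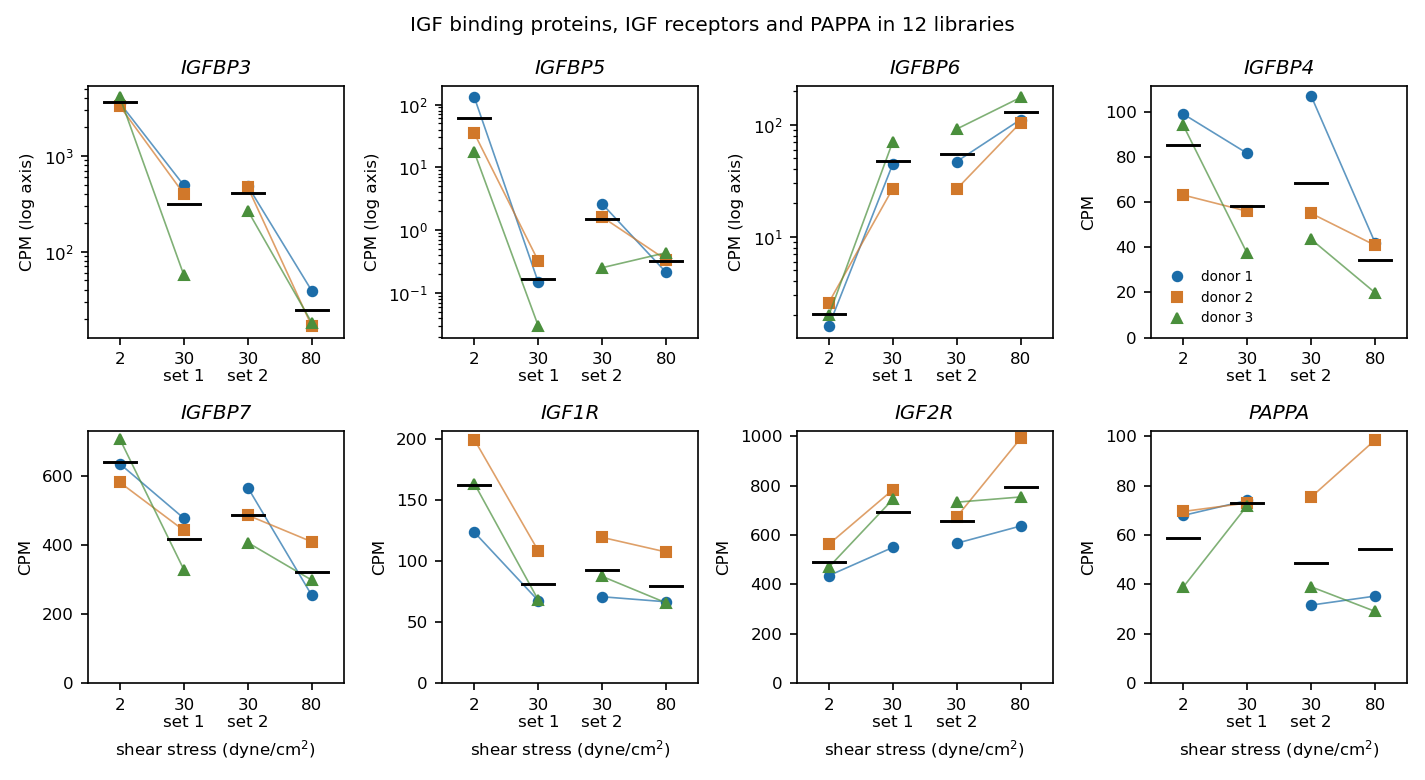
CPM of the 8 members with counts in the 4 groups (log axis for IGFBP3, IGFBP5 and IGFBP6, linear for the others), with 1 point per library at low, physiological (sets 1 and 2) and supra-high shear stress, lines joining each donor to its matched control and black bars at the group means. IGFBP3 lay at 3308 to 4096 CPM at 2 dyne/cm2 and at 16.7 to 39.0 CPM at 80 dyne/cm2, while IGFBP6 went from 1.59 to 2.58 CPM up to 105 to 175 CPM.

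IGFBP3, the main carrier of IGFs in blood, was higher under low and lower under supra-high shear stress. Its gene lies on chromosome 18 (50002921 to 50009425, Sscrofa11.1). Donors 1, 2 and 3 had 3570, 3308 and 4096 CPM at 2 dyne/cm2, against 493, 401 and 56.7 CPM in set 1. The groups did not overlap, and donor 3 had much the lowest level in set 1, so that its ratio of 72.3 stood far above the 7.24 and 8.25 of donors 1 and 2. At 80 dyne/cm2 the level was 39.0, 16.7 and 18.1 CPM, against 485, 470 and 268 CPM in set 2. All 3 donors were thus lower at 80 dyne/cm2, by 12.4-, 28.2- and 14.8-fold. Fitted log2 fold changes were 3.94 (SE 0.79) under low and -4.11 (SE 0.23) under supra-high shear stress. The ratio of 2 to 80 dyne/cm2 within a donor was 91.5, 198 and 226, though these cultures had different controls. The call at 2 dyne/cm2 was lost when the donor 2 library of either group was left out (log2 fold changes of 2.96 to 4.62 over 6 fits), and the call at 80 dyne/cm2 was lost without the donor term or against set 1 (-3.34).

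IGFBP6, which prefers IGF2 over IGF1, ran the other way. It lies on chromosome 5 (18352884 to 18357225). At 2 dyne/cm2 the donors had 1.59, 2.58 and 1.98 CPM, against 44.5, 26.9 and 70.4 CPM in set 1. Under supra-high shear stress they had 111, 105 and 175 CPM, against 46.9, 26.7 and 91.5 CPM in set 2. Neither comparison had overlapping groups: the level was lower by 27.9-, 10.4- and 35.5-fold at 2 dyne/cm2 and 2.37-, 3.92- and 1.92-fold higher at 80 dyne/cm2. The log2 fold changes were -4.42 (SE 0.38) and 1.37 (SE 0.18). Within a donor, the level at 80 dyne/cm2 was 69.9, 40.5 and 88.5 times that at 2 dyne/cm2. Against set 1 the ratios at 80 dyne/cm2 were 2.50, 3.89 and 2.49, and the call at 80 dyne/cm2 was not made without the donor term.

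IGFBP5, a matrix-binding member of the family on chromosome 15 (118861816 to 118877787), was near absent at 30 dyne/cm2 and present at 2 dyne/cm2. The 2 dyne/cm2 libraries had 130, 34.7 and 17.4 CPM. Set 1 had 6, 11 and 1 counts, or 0.149, 0.325 and 0.0300 CPM. No library of one group came near the other, but the donors spread widely at 2 dyne/cm2 and the ratio rests on few reads in set 1. Ratios of donors 1 and 2 were 873 and 107, and donor 3 had 527 counts against 1 (ratio 580, 95% interval for counting error alone 104 to 22954). Set 2 held more reads, with 94, 54 and 10 counts (2.62, 1.63 and 0.254 CPM), and against it the 2 dyne/cm2 libraries were 49.5, 21.4 and 68.4 times higher. IGFBP5 thus had a log2 fold change of 8.41 (SE 0.51) over set 1, and of 5.27 when set 2 was the control. At 80 dyne/cm2 the counts were 8, 11 and 14 (0.214, 0.339 and 0.441 CPM), lower than set 2 in donors 1 and 2 (ratios 0.0816, 95% interval 0.0342 to 0.167, and 0.208, 0.0981 to 0.402) but not in donor 3 (1.73, 0.715 to 4.36). Against set 1 the ratios at 80 dyne/cm2 were 1.44, 1.04 and 14.7, so the direction at 80 dyne/cm2 depends on the control.

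Mesenchymal markers stood beside IGFBP3 and IGFBP5. Of 6 tested at 2 dyne/cm2, 3 rose and 0 fell (5.06% and 4.54% of all genes): PDGFRB, a receptor of pericytes and fibroblasts (log2 fold change 2.41, SE 0.26, adjusted p = 0.00758), COL3A1, a fibrillar collagen (1.97, SE 0.24, adjusted p = 0.00905), and PDGFRA (1.09, SE 0.23, adjusted p = 0.0300), whose call was lost without either library of donor 1 or 3 and against set 2 (0.92, adjusted p = 0.116). Without the donor term neither PDGFRB (adjusted p = 0.116) nor PDGFRA (adjusted p = 0.0949) was called. At 80 dyne/cm2, 1 of 5 fell, COL3A1 (-1.90, SE 0.35, adjusted p = 0.0203 with edgeR), a call lost when the donor 2 library of either group was left out. DCN, another fibroblast marker, reached at most 4.55 CPM and FAP 0.128 CPM. Of 8 endothelial markers tested at 2 dyne/cm2, 0 rose and 2 fell (median -0.46), and at 80 dyne/cm2 1 rose and 0 fell (median 0.23). The receptor TEK fell at 2 dyne/cm2 (-2.95, SE 0.24, adjusted p = 0.00479), while CDH5, which forms endothelial junctions, had -0.11 (adjusted p = 0.521) and ROBO4, a guidance receptor, had 0.50 (SE 0.10, adjusted p = 0.0251), under the 2-fold limit. EMCN, an endothelial sialomucin, fell at 2 dyne/cm2 (-1.25, SE 0.28, adjusted p = 0.0341) and rose at 80 dyne/cm2 (2.33, SE 0.35, adjusted p = 0.0112), and neither call held against the other set; the first was also lost without the donor 3 library of either group. CD68 was the leukocyte marker that fell at 2 dyne/cm2 (-1.17, SE 0.15, adjusted p = 0.00961), and neither of 2 tested smooth muscle markers was called. These were MYOCD, a coactivator of smooth muscle genes, with 4.03, 4.39 and 5.32 CPM against 1.78, 0.266 and 0.0600 CPM (3.13, SE 0.88, adjusted p = 0.0571), and LMOD1 (-0.94, SE 0.26, adjusted p = 0.0535). The part of these cells or genes in the IGFBP values was not tested.

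IGFBP4 and IGFBP7 differed less and did not pass the 2-fold threshold in either comparison. IGFBP4, which PAPPA cuts, lies on chromosome 12 (21966524 to 21980043). It had 99.0, 63.1 and 94.0 CPM at 2 dyne/cm2 against 81.6, 55.9 and 37.3 CPM in set 1, and 42.0, 40.8 and 19.9 CPM at 80 dyne/cm2 against 107, 55.0 and 43.5 CPM in set 2. The groups overlapped at 2 dyne/cm2 and lay just apart at 80 dyne/cm2. Its log2 fold changes were 0.61 (SE 0.25) and -0.97 (SE 0.17), the second just inside the 2-fold limit, and it was called at 80 dyne/cm2 when the donor 2 library of either group was left out.

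IGFBP7 binds IGFs weakly and lies on chromosome 8 (56283089 to 56357822). It had 636, 582 and 707 CPM at 2 dyne/cm2 against 478, 443 and 329 CPM in set 1. Supra-high shear stress gave 254, 410 and 298 CPM against 567, 487 and 407 CPM in set 2. Groups did not overlap at 2 dyne/cm2 but did at 80 dyne/cm2, with log2 fold changes of 0.65 (SE 0.18) and -0.62 (SE 0.17). Its span overlaps POLR2B, a subunit of RNA polymerase II, and since the strand used in counting is not given in the sources used here, shared reads cannot be told apart; POLR2B itself stayed at 137 to 158 CPM. IGFBP2 lies 10830 bases from IGFBP5, at chromosome 15 118822092 to 118850985, and had 0 counts in each of the 12 libraries. For a single library taken alone, 0 counts allow an expected count of up to 3 at the 95% level, for counting error alone.

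**Figure D2:**
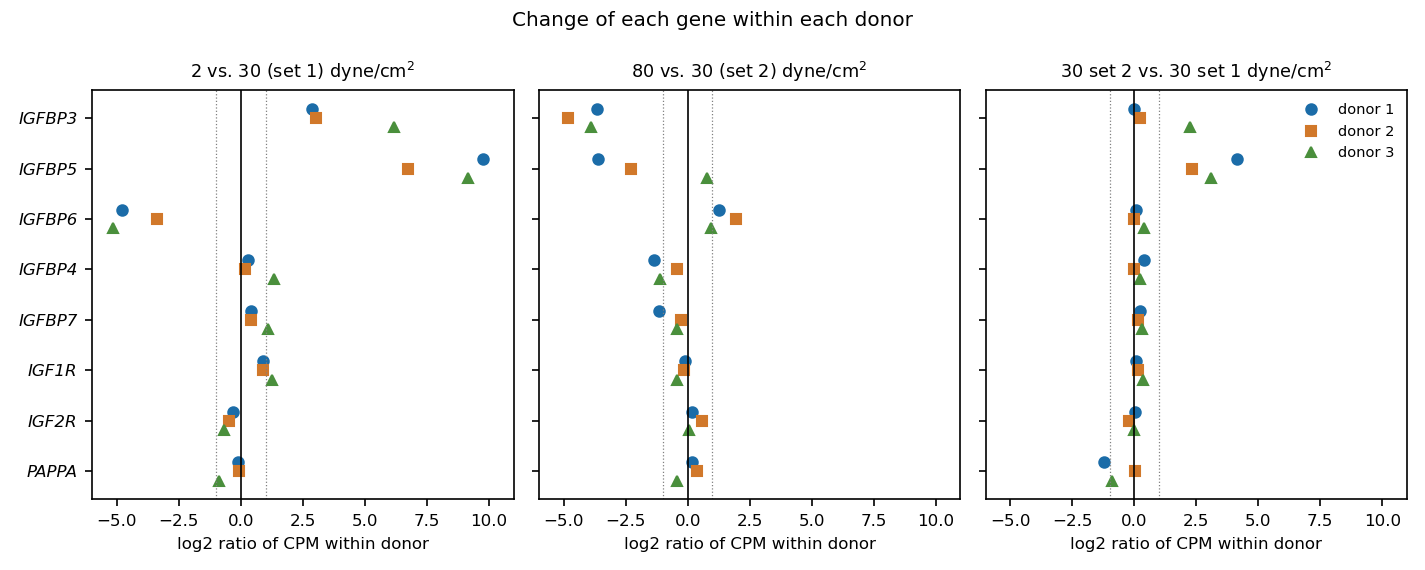
Within-donor log2 ratio of CPM for each member with counts, at 2 dyne/cm2 over set 1, at 80 dyne/cm2 over set 2, and in set 2 over set 1, with 1 point per donor, a line at 0 for no difference and dotted lines at 2-fold. IGFBP3, IGFBP4, IGFBP7 and IGF1R lie above 0 in all 3 donors at 2 dyne/cm2 and below it in all 3 at 80 dyne/cm2, and IGFBP6 and IGF2R lie the other way round. Of all genes tested, 65.9% at 2 dyne/cm2 and 49.4% at 80 dyne/cm2 had the same direction in all 3 donors.

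The receptors differed by less than IGFBP3, IGFBP5 and IGFBP6. IGF1R, on chromosome 1 (137383623 to 137691038, overlapping PGPEP1L), had 123, 199 and 163 CPM at 2 dyne/cm2 against 67.4, 108 and 67.9 CPM in set 1. The groups did not overlap and the donor ratios were close, at 1.83, 1.84 and 2.40. Its log2 fold change of 1.02 (SE 0.11) lay at the 2-fold limit: it was 0.82 against set 2 and 0.92 against both sets, and the call was lost in these fits, without the donor term, and without the donor 3 library of either group. Under supra-high shear stress IGF1R had 66.5, 107 and 65.6 CPM against 70.6, 119 and 87.3 CPM in set 2 (log2 fold change -0.22, SE 0.09).

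IGF2R, on chromosome 1 (7369485 to 7472480), had 435, 562 and 470 CPM at 2 dyne/cm2 against 550, 783 and 744 CPM in set 1, and 637, 992 and 754 CPM at 80 dyne/cm2 against 567, 673 and 733 CPM in set 2. Each donor was lower at 2 dyne/cm2 and higher at 80 dyne/cm2, yet the groups overlapped in both comparisons with donor 1 below donor 2 in every group. The log2 fold changes were -0.48 (SE 0.11) and 0.25 (SE 0.13).

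PAPPA, the protease that cuts IGFBP4 and IGFBP5, lies on chromosome 1 (256544496 to 256784813). It had 67.9, 69.5 and 38.9 CPM at 2 dyne/cm2 against 74.0, 72.9 and 71.8 CPM in set 1, and 35.2, 98.4 and 29.0 CPM at 80 dyne/cm2 against 31.6, 75.3 and 39.0 CPM in set 2. The groups lay just apart at 2 dyne/cm2 and overlapped widely at 80 dyne/cm2. The log2 fold changes were -0.34 (SE 0.18) and 0.04 (SE 0.15), and both changed sign with the other set as control, to 0.33 and -0.66.

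The members differed in how much of their spread over 12 libraries went with condition and how much with donor. On the log2 CPM scale condition took 95.1% of the variance of IGFBP6, 91.7% of IGFBP3 and 89.8% of IGFBP5. It took 74.7% for IGFBP7, 64.6% for IGF1R, 59.7% for IGF2R and 53.8% for IGFBP4. PAPPA was the one member with more spread between donors (43.6%) than between conditions (22.7%).

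Across the 12 libraries, after each donor's mean was removed, members paired off by sign. IGF2R and IGFBP6 ran together (Pearson r = 0.94) and both ran against IGFBP3 (-0.94 and -0.91) and IGF1R (-0.90 and -0.95). IGFBP4 and IGFBP7 ran together (0.93), while PAPPA had r between -0.16 and 0.16 with every other member. The libraries share 4 conditions and 3 donors, so these values describe the same differences as above and carry no test.

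Sets 1 and 2 at 30 dyne/cm2 both served the choice of genes, each as the control of one comparison, so their difference in the members is a description and no p is given for it. Among the 7 members that passed the filter 0 were called, where 0% of 11163 genes were called higher and 0.00896% (1 gene) lower. All members' groups overlapped, where 10.1% of all genes had groups apart. IGFBP3 had a log2 fold change of 0.79 (SE 0.44) in set 2 over set 1, with donor 3 the farthest apart (268 against 56.7 CPM). PAPPA had -0.68 (SE 0.23), with -1.04 to -0.41 over the fits that left out 1 library.

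IGFBP7 (0.24), IGFBP4 (0.21), IGF1R (0.20), IGFBP6 (0.16) and IGF2R (-0.06) differed between the sets by at most 0.24 on the log2 scale. IGFBP5 was under the filter and was higher in set 2 in each donor, with 94, 54 and 10 counts against 6, 11 and 1, and the ratio of donor 3 was 8.48 (95% interval for counting error alone 1.21 to 368). By the design notes, though not by the methods, slides and seeding densities differ between the comparisons. Any part they had in the difference between sets cannot be told apart from the sets themselves.

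The other genes of the axis and its neighbours were tested in the same fits. Their lists and the marker lists were drawn up with earlier results of these data known, so counts over them are a description. Beside the counts of called genes in each list stand the shares over all genes, which were 5.06% higher and 4.54% lower under low shear stress, and 1.14% higher and 1.05% lower under supra-high shear stress. Of 7 genes in these and the marker lists called at 80 dyne/cm2, 0 were called without the donor term. STC2, stanniocalcin 2, which blocks PAPPA, rose at 2 dyne/cm2, from 6.49, 15.0 and 3.51 CPM in set 1 to 36.6, 33.4 and 25.6 CPM (log2 fold change 2.16, SE 0.36, adjusted p = 0.0174). Its log2 fold change at 80 dyne/cm2 was -0.01 (adjusted p = 0.967). The call at 2 dyne/cm2 was lost without the donor term (1.95, adjusted p = 0.0628) and kept in all 6 fits that left out 1 library. STC1, its paralogue, had -0.26 at 2 dyne/cm2 (adjusted p = 0.505).

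IRS2, an adaptor that couples IGF1R and the insulin receptor to PI3K, was the one adaptor called in both comparisons, in opposite directions. In the comparison at 80 dyne/cm2 it passed the filter only through the libraries of set 2, where it was high, so a fall was favoured there. It rose at 2 dyne/cm2 from 1.39, 1.09 and 1.77 to 5.22, 4.68 and 12.1 CPM (log2 fold change 2.29, SE 0.24, adjusted p = 0.00686). IRS2 fell at 80 dyne/cm2 from 1.17, 1.90 and 1.399 to 0.427, 0.862 and 0.724 CPM (-1.17, SE 0.25, adjusted p = 0.0345), and that call was lost in 4 of 6 fits that left out 1 library (-1.27 to -1.05), without the donor term, against set 1 (adjusted p = 0.263), and in DESeq2 (adjusted p = 0.102). IRS1 was at 27 counts over the 2 dyne/cm2 libraries and 5 over set 1 (ratio 5.80, interval 2.20 to 19.3) and was not tested.

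IGFBP1, the short-lived insulin-regulated binding protein, lies 9061 bases from IGFBP3 on chromosome 18. It had 25, 15 and 20 counts at 2 dyne/cm2, 0, 1 and 0 in set 1, 3, 3 and 2 in set 2 and 1, 0 and 0 at 80 dyne/cm2. Summed counts at 2 dyne/cm2 were 64.4 times those of set 1 (95% interval for counting error alone 11.13 to 2587) and 8.11 times those of set 2 (3.86 to 19.6), and the gene was below the filter. In the edgeR fit without the filter, over 16666 genes, its log2 fold change at 2 dyne/cm2 was 5.53 (SE 0.83, adjusted p = 0.0125), a value that depends on how a control near 0 counts is treated. The ligand IGF1 was at 0.148 to 2.17 CPM in every library, and in the unfiltered fit of the sets it was higher in set 2 (2.02, SE 0.33, adjusted p = 0.0382). INSR, the insulin receptor, had -0.55 at 2 dyne/cm2 (adjusted p = 0.424), where the donor 1 library of set 1 stood at 32.1 CPM and donors 2 and 3 at 5.46 and 7.20 CPM, and leaving out either donor 1 library turned the sign (0.16).

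**Figure D3:**
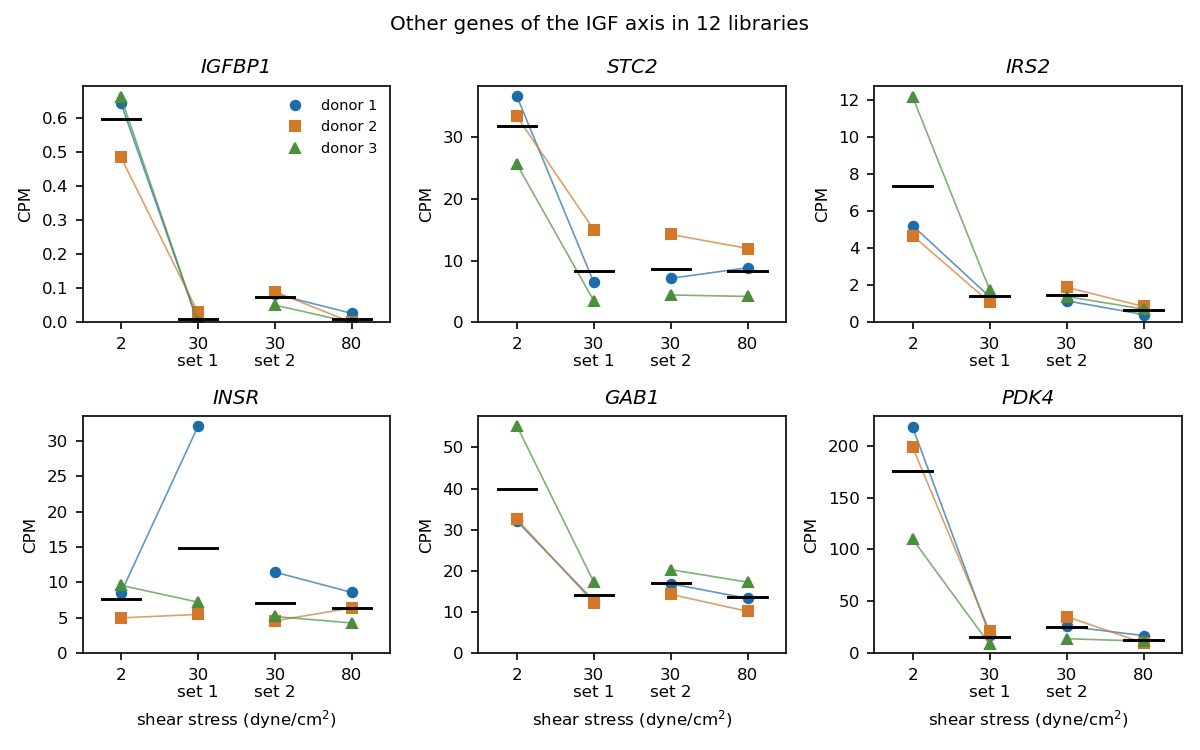
CPM in each library (points by donor, lines to the matched control, black bars at the means) of IGFBP1, STC2, IRS2, INSR, GAB1 and PDK4 in the 4 groups. STC2 stands at 25.6 to 36.6 CPM at 2 dyne/cm2 and at 3.51 to 15.0 CPM in the other 9 libraries, and IRS2 at 4.68 to 12.1 CPM at 2 dyne/cm2 and under 2 CPM elsewhere.

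Of the other genes of the IGF axis, 5 of 13 were tested at 2 dyne/cm2, with 1 higher (STC2) and 0 lower, and 7 at 80 dyne/cm2, with 0 called. Their medians were -0.14 and -0.01. Of 27 tested receptor adaptors and members of the PI3K-AKT chain, 3 rose at 2 dyne/cm2: IRS2, GAB1, a docking protein (1.49, SE 0.11, adjusted p = 0.00403), and PIK3CD, a PI3K catalytic subunit (1.32, SE 0.15, adjusted p = 0.00770). A further 2, PIK3R3 and RICTOR, fell, from means of 63.1 and 79.8 CPM in set 1 to 26.6 and 35.2 CPM. In set 2 their means were 51.6 and 58.0 CPM. At 80 dyne/cm2 only IRS2 of the 27 was called. The medians of this chain were -0.03 and 0.14, beside 0.00 and -0.01 for all genes.

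FOXO factors, which AKT keeps out of the nucleus, and genes they induce gave 1 higher and 1 lower of 17 tested at 2 dyne/cm2 and 0 at 80 dyne/cm2 (medians 0.29 and -0.16), close to the shares over all genes. PDK4, a kinase that turns off pyruvate dehydrogenase, rose from 17.6, 20.8 and 8.34 to 218, 199 and 110 CPM (3.55, SE 0.13, adjusted p = 0.00187). TRIB1, a pseudokinase, fell (-1.54, SE 0.12, adjusted p = 0.00409), but against set 2 its value was 0.17 (adjusted p = 0.799), and it was not called without the donor term (adjusted p = 0.193). Mannose 6-phosphate sorting genes, which share the route of IGF2R, had 0 of 14 called in either comparison (medians -0.15 and -0.06).

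Proteins with an IGFBP-like domain gave 2 higher and 2 lower of 10 tested at 2 dyne/cm2, and 0 of 10 at 80 dyne/cm2 (medians 0.33 and -0.23). CCN2, a matrix-associated growth regulator, rose (2.01, SE 0.31, adjusted p = 0.0147), as did CCN5 (1.56, SE 0.20, adjusted p = 0.00988), whereas CCN3 fell (-1.496, SE 0.12, adjusted p = 0.00457). The fourth was HTRA3, a serine protease, which fell (-1.16, SE 0.30, adjusted p = 0.0454).

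Among the proteases known to cut IGFBPs, the calls of each comparison lay on one side. This list was drawn up with earlier results of these data known, so its counts are a description and support nothing. The paper had already reported urokinase and ADAMTS genes as lower under low and higher under supra-high shear stress. ADAM28 was below the filter and not tested, and its mean was higher at 2 dyne/cm2 (2.24 CPM) than in set 1 (0.118 CPM). At 2 dyne/cm2, 0 rose and 5 fell of 9 tested (median -1.70). Among these were ADAMTS1, a metalloprotease of the ADAMTS family (-5.75, SE 0.26, adjusted p = 0.00290), and PLAU, the urokinase that activates plasminogen (-3.19, SE 0.12, adjusted p = 0.00187). Another was F2, prothrombin (-2.28, SE 0.30, adjusted p = 0.0101), which did not reach 2-fold against set 2 (-0.96). The others were MMP14 (-1.70) and ADAM12 (-1.72). ADAM12 had means of 17.8 CPM in set 1 and 9.08 CPM in set 2, and its mean at 2 dyne/cm2 was less than 2-fold below set 2. Set 2 was lower than set 1 by log2 fold changes of -0.98 for ADAM12 and -0.55 for MMP14. Against set 2 the falls of ADAMTS1 and PLAU were smaller, at -3.15 and -2.12, and both calls held. At 80 dyne/cm2, 3 of 9 rose (median 0.62): ADAMTS1 (2.81, SE 0.34, adjusted p = 0.00618), PLAU (1.18, SE 0.12, adjusted p = 0.00394) and F2 (1.31, SE 0.20, adjusted p = 0.0118), the last lost without the donor 2 or donor 3 library of either group.

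These gains at 80 dyne/cm2 rest on set 2. ADAMTS1 had 166, 153 and 78.1 CPM in set 1 but 7.38, 34.9 and 32.7 CPM in set 2, against 56.8, 465 and 111 CPM at 80 dyne/cm2. Against set 1 the log2 fold changes at 80 dyne/cm2 were 0.22 for ADAMTS1 (adjusted p = 0.902), 0.10 for PLAU (adjusted p = 0.788) and -0.045 for F2 (adjusted p = 0.959). Between the sets themselves, set 2 was lower by log2 fold changes of -2.52 (adjusted p = 0.139), -1.07 (adjusted p = 0.0563) and -1.34 (adjusted p = 0.0796), and 0 of the 9 proteases was called (edgeR; 2146 of all genes had an unadjusted p under 0.05).

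Of 9 tested cell surface and intracellular partners of IGFBPs, 0 rose and 3 fell at 2 dyne/cm2 (median -0.43). These were ITGB3, the beta subunit of the vitronectin receptor (-3.47, SE 0.39, adjusted p = 0.00787), SDC1, a heparan sulphate proteoglycan (-1.53, SE 0.13, adjusted p = 0.00537), and ITGA5, of the fibronectin receptor (-1.22, SE 0.15, adjusted p = 0.00936), which did not reach 2-fold against set 2 (-0.66). ITGB3 rose at 80 dyne/cm2 (1.22, SE 0.09, adjusted p = 0.00233), with 271, 234 and 184 CPM against 103, 105 and 84.4 CPM, and the value against set 1 was 0.64 (adjusted p = 0.298).

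**Figure D4:**
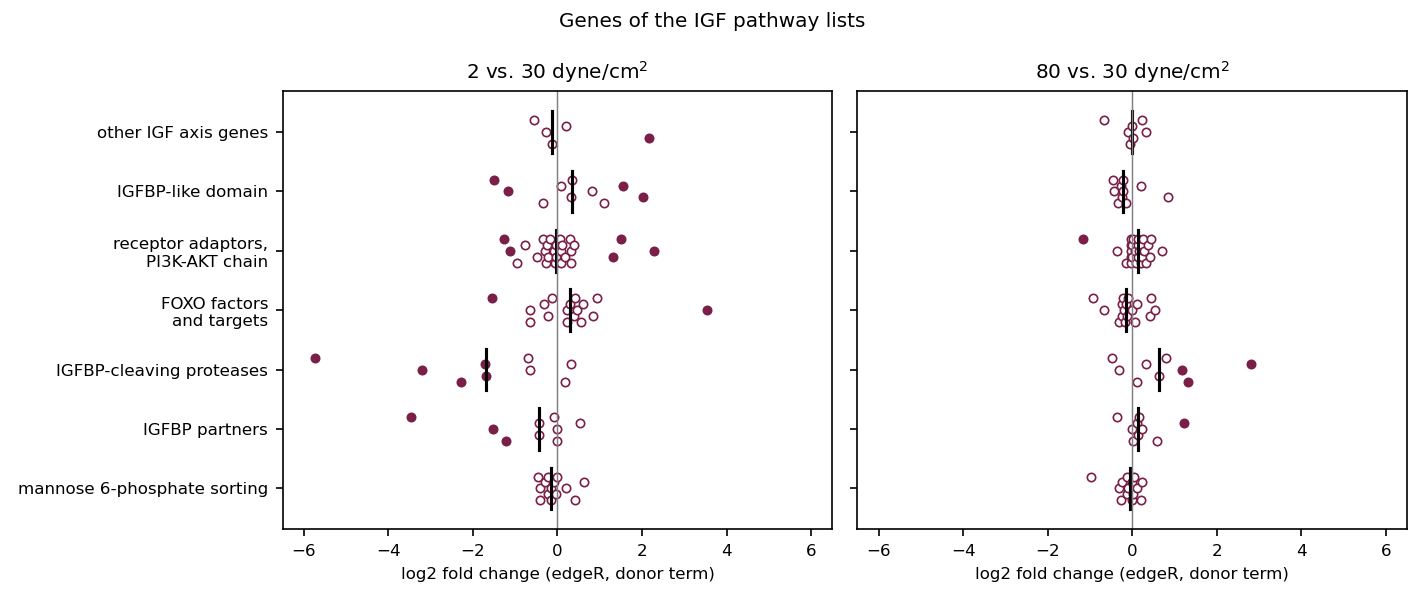
Log2 fold change (x axis) of every tested gene of the 7 pathway lists (rows) at 2 vs. 30 and 80 vs. 30 dyne/cm2, with called genes as filled points, the others open, and the list median as a black bar. The proteases have 5 called genes, all below 0, at 2 dyne/cm2 (median -1.70) and 3, all above 0, at 80 dyne/cm2 (median 0.62). The lists were drawn up with earlier results of these data known.

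The genes with the course most like the 3 members of largest difference were sought among 9677 genes with a symbol and at least 50 counts on average, by Pearson r over 12 libraries on log2 CPM after removal of each donor's mean. For IGFBP3 these were GPCPD1 (r = 0.995), CPZ (0.989), PRSS12 (0.985), FBLN1 (0.983) and SLC16A7 (0.983). For IGFBP5 they were RCBTB2 (0.987), PPIL2 (0.975), TMEM120B (0.971), SYT11 (0.971) and WBP1L (0.969). For IGFBP6 they were ADAM15 (0.998), ZBTB7C (0.994), ORAI1 (0.993), UPK1B (0.993) and NHERF2 (0.992). The 12 points of each r fall into 4 conditions, so r mostly reflects 4 group means. No gene was among the 5 of more than one of these members.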

How the data were processed

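RNA was sequenced in 12 libraries of porcine ECs (TruSeq, single-end reads). STAR 2.4 placed the reads on Sscrofa11.1, reads with several locations were dropped, and the authors deposited raw counts per gene over merged exons (featureCounts 1.4.6 in the submitters' processing notes). Counts are not normalized. The table held 3718 genes without a count. Symbols were given to 14573 genes (68.9%) by their Ensembl identifiers. IGFBP3's identifier had no symbol there and was named from the study's own gene list.

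The tests were edgeR 4.0.16's quasi-likelihood fits (R 4.3.3, TMM factors) with a donor term. A gene was tested where 3 or more of the 6 libraries reached 1 CPM. The adjustment was Benjamini-Hochberg over all genes tested. The thresholds were 2-fold and 0.05, after the study's methods. The SE is the log2 fold change over the square root of F. The methods name no donor term and call the experiments independent. They also state that the conditions compared shared donor and cell passage. Replicate numbers mark pigs by the labels. Library deviations from the group mean correlated at 0.666 to 0.881 in the 18 same-number pairs (10951 genes). The 36 other pairs had -0.569 to -0.147, and centring on the group mean makes these negative on average once same-number pairs are positive. Total counts lay between 29606854 and 41058902, and CPM are TMM-scaled. Intervals are exact and cover counting error only, since reads without molecular identifiers are not independent molecules. At most 3 counts were the floor.

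Of 154 entries in the gene lists, 141 had a row. Members and lists were chosen with earlier results of these data known. Named were all members, IGF1, INSR, IGFBP1, STC1, STC2, IRS1 and IRS2, up to 3 called genes of largest log2 fold change per list and comparison, and the 5 genes most like IGFBP3, IGFBP5 and IGFBP6. Other called list genes (MMP14, ADAM12, PIK3R3, RICTOR, HTRA3) were named after their values were seen. Gene positions are RefSeq's for Sscrofa11.1. Gene lengths were not used, so levels are not ordered between genes per length. Alternatives were no donor term, relative log expression factors, DESeq2 1.42.0, other filters, other control sets, shared dispersion, adjusted p alone, and each library left out. The procedure was tested on simulated data.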

Additional observations from a re-analysis of the deposited data

Results flagged for a closer look

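Each of 7 genes moved one way in all 3 donors at 2 vs. 30 dyne/cm2 and the opposite way in all 3 donors at 80 vs. 30 dyne/cm2. Of all genes tested, 65.9% moved in the same direction in all 3 donors at 2 vs. 30 dyne/cm2. At 80 vs. 30 dyne/cm2 this share was 49.4%. The share of all genes that took opposite directions was not computed, and the paper reports opposite regulation for most genes. The log2 fold change at 2 minus that at 80 dyne/cm2 was 8.04 for IGFBP3 (3.94 against -4.11), 1.58 for IGFBP4 (0.61 against -0.97), 1.27 for IGFBP7 (0.65 against -0.62), 1.24 for IGF1R (1.02 against -0.22), -0.73 for IGF2R (-0.48 against 0.25), -5.80 for IGFBP6 (-4.42 against 1.37) and 3.45 for IRS2 (2.29 against -1.17). The difference itself was not tested, and for the members it follows from values that the choice of genes used. IRS2 passed the filter at 80 dyne/cm2 only through set 2, where it was high. The IGFBP4, IGFBP7 and IGF2R values did not pass the 2-fold threshold in either comparison.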

How the results depend on the processing

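Without the replicate block, 635 genes in place of 1078 were called at 2 dyne/cm2, 0 in place of 246 at 80 dyne/cm2, and 0 in place of 1 between the sets. Members called at 80 dyne/cm2 went from 2 to 0, and list genes called there from 7 to 0. Other settings moved counts too: the adjusted p alone gave 2895, 940 and 2 genes, shared dispersion 125 at 80 dyne/cm2 and 0 between sets, and at 80 dyne/cm2 the other set gave 24 genes and 1 member and both sets 84 genes. Between the sets, DESeq2 called 66 genes, and no filter gave 46 genes and 1 member. Leaving out 1 library gave 781 to 1137, 76 to 331 and 0 to 103 genes and 3 to 4, 2 to 3 and 0 to 1 members in the comparisons at 2 and 80 dyne/cm2 and between sets, the 76 being without the donor 2 library of set 2 and the 103 without that of set 1. Values that turned sign with the other set as control were PAPPA (0.33 at 2 and -0.66 at 80 dyne/cm2), INSR (0.19 at 2), TRIB1 (0.17 at 2), STC2 (0.12 at 80) and F2 (-0.045 at 80). With both sets they were PAPPA (-0.33 at 80), STC1 (0.19 at 2), IGF1 (0.035 at 80) and STC2 (0.061 at 80). Ranges over left-out libraries that held a changed sign were -0.14 to 0.27 for PAPPA, -0.36 to 0.10 for INSR and -0.18 to 0.13 for STC2 at 80 dyne/cm2, -1.09 to 0.16 for INSR at 2 dyne/cm2, and -0.11 to 0.021 for IGF2R between the sets. The cause was not tested. The size of IGFBP5's ratio is limited by 1 to 11 counts per library in set 1, and 3 donors a group limit every other value.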
